A study of Mus musculus with 12 samples.

Results

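The comparison described here sets mouse endothelial-lineage cells cultured for 4 days at 21% oxygen with the gamma-secretase inhibitor L-685.458 against the same cells cultured without it. It uses 6 of the 12 arrays of the series, 3 with the inhibitor at 4 µmol/l and 3 without. Of 25697 probes on the array, 13602 were detected (p under 0.05) on 3 or more of these 6 arrays and were kept. They include 12818 probes with a gene symbol, which stand for 9242 genes, each represented by the kept probe that was brightest on average over the 12 arrays. Of these genes, 8067 were detected on all 6 arrays.

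All cells came from wild type CCE embryonic stem cells, a single male mouse line, labelled CCE (129/Sv). They were grown as embryoid bodies, sorted for Flk1 (the vascular endothelial growth factor receptor encoded by Kdr), plated on collagen IV, and finally sorted for CD31 (encoded by Pecam1) before RNA was taken. The labels name no vehicle for the cells without the inhibitor. The remaining arrays held cells at 1.5 to 2% oxygen (hypoxia) without and with the inhibitor, 3 of each. The labels call the 3 cultures of a group biological replicates but do not say whether they came from separate embryoid body preparations, so p-values measure the spread between these cultures only.

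Gamma-secretase is a membrane protease that cuts the transmembrane stump of a Notch receptor after a ligand on a neighbouring cell has engaged it. The released intracellular domain enters the nucleus, joins the DNA-binding protein Rbpj and Mastermind co-activators, and turns on repressors of the Hes and Hey families and other targets. In endothelium, Notch signalling is known for promoting arterial over venous identity and for holding stalk cells back from becoming tip cells. The enzyme also cuts many other membrane proteins, so its inhibitors are not specific to Notch.

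Expression is given as log2 signal after background correction and quantile normalization, and a difference is the mean with inhibitor minus the mean without it. The 6 arrays each detected 13085 to 13723 probes, and the lowest signal that counted as detected was 5.11 to 5.24. Replicate 3 of both groups stood apart from the other arrays. On the first principal component, which held 60.2% of the variance, normoxia 3 and inhibitor 3 lay at -30.46 and -30.01 and the other 4 arrays at 13.53 to 17.14. Where leaving them out moved the difference of a separated gene by over 1.5 times, both values are given.

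The label of the cells was checked against 13 endothelial markers, of which 12 had a probe and 11 were detected on all 6 arrays. Pecam1 had signals of 11.91, 12.08 and 12.54 without the inhibitor and 11.88, 11.99 and 12.41 with it. Cdh5, which encodes VE-cadherin, lay between 10.12 and 10.85 on the 6 arrays. Kdr and Erg were dim, near the detection limit, at 5.27 to 6.21 and 4.998 to 6.19. Erg was detected on 2 normoxia arrays and 3 inhibitor arrays. All other endothelial markers with a probe had signals of 9.2 or above on each array. Of 8 blood cell markers, 5 were detected on all 6 arrays, among them Laptm5 at 11.86 to 11.94 and Itga2b at 7.63 to 9.24, while Ptprc and Tyrobp were detected on no array. Their summed linear signal was 4880, 5094 and 4415 on normoxia 1 to 3 and 4766, 4925 and 4756 on inhibitor 1 to 3. Markers of undifferentiated embryonic stem cells were present: all 8 were detected on all 6 arrays. Their summed linear signal was 22699, 22491 and 9771 on normoxia 1 to 3 and 19589, 19110 and 2805 on inhibitor 1 to 3. Of 8 mural cell markers, 4 were detected on all 6 arrays, and Cnn1 and Rgs5 on no array. The mural sum was 69342, 68685 and 59802 on normoxia 1 to 3 and 69929, 68801 and 66207 on inhibitor 1 to 3. Among these markers Acta2 had a log2 signal of 15.84 to 16.06 and made up most of the mural sum. Dppa5a, at 11.09 to 14.20, likewise made up most of the stem cell sum, and Laptm5 most of the blood cell sum.

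In normoxia, the genes with the largest differences downwards at their brightest kept probe belong to the Notch and arterial programmes: Hey1, Gja5 and Gja4. A dimmer kept probe of Rgs3 differed by -1.25, further from 0 than Gja4 at -1.18. Hey1, a bHLH repressor that is a direct Notch target, was 3.67-fold lower. Gja5 and Gja4, gap junction connexins of arterial endothelium, were 3.12-fold and 2.27-fold lower. The largest difference upwards was in Vgll2, a co-factor of TEAD transcription factors, at 2.40-fold. None of these differences passed the test over all probes. With limma and Benjamini-Hochberg adjustment at 0.05, 0 of 13602 probes were called higher and 0 lower (0% called, smallest adjusted p 0.622), and 264 probes (1.94%), 132 in each direction, had an unadjusted p under 0.05. Hey1, Gja4 and Gja5 passed when the arrays numbered 3 were left out of all 4 groups, an alternative chosen after seeing the data. With those arrays left out of the 2 normoxia groups only, Hey1 passed (limma adjusted p 0.0022). Gja4 (0.834) and Gja5 (0.77) then did not.

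**Figure D1:**
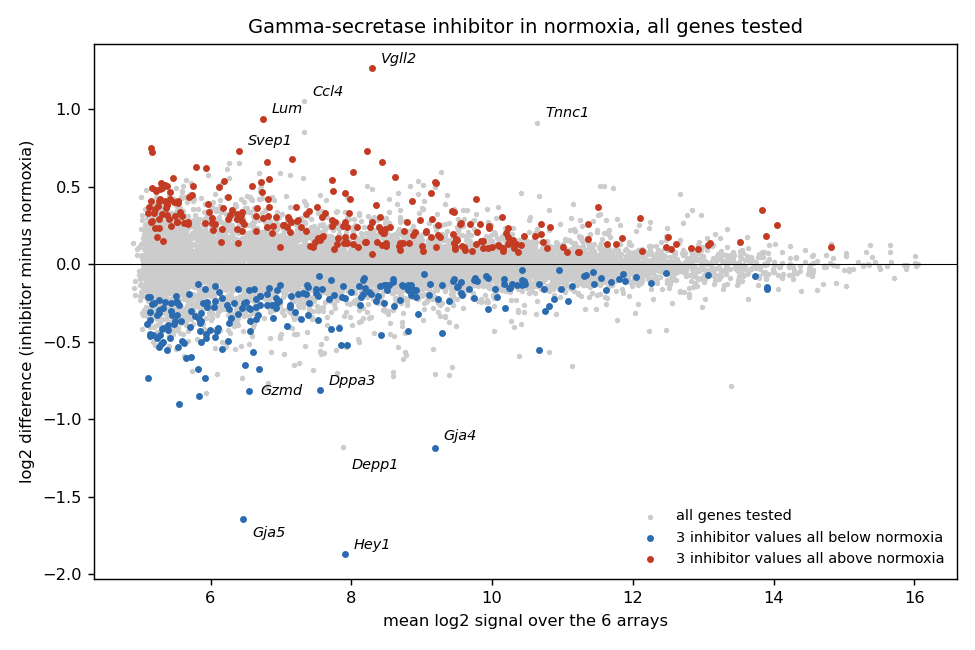
Mean log2 signal over the 6 arrays (x axis) against the log2 difference with the inhibitor (y axis) for each of the 9242 genes tested; blue and red points are genes whose 3 inhibitor values all lay below or above the 3 normoxia values. Hey1, Gja5 and Gja4 lie lowest and Vgll2 highest; Ccl4, Tnnc1, Svep1 and Dppa3 were labelled after their values were seen.

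Hey1 had a log2 signal of 9.24, 9.19 and 8.10 on normoxia 1 to 3 and of 6.72, 6.76 and 7.43 on inhibitor 1 to 3. All 3 inhibitor values lay below all 3 normoxia values, and the gap was widest in replicates 1 and 2. The group means were 8.84 ± 0.65 (SD, n = 3) and 6.97 ± 0.40 (SD, n = 3), a difference of -1.87 with a standard error of 0.30 and a 95% interval of -2.52 to -1.22. Its limma adjusted p was 0.622. Without normoxia 3 alone the difference was -2.25 with an adjusted p of 0.0166. Without both arrays numbered 3 in normoxia it was -2.48 with an adjusted p of 0.0022.

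Gja4 had signals of 9.93, 10.004 and 9.40 without the inhibitor and 8.51, 8.43 and 8.84 with it. The groups did not overlap, and again replicate 3 had the smallest gap. The difference was -1.18 with a standard error of 0.29 and a 95% interval of -1.81 to -0.56. Gja5 had signals of 8.02, 7.88 and 5.97 without the inhibitor and 5.61, 5.52 and 5.80 with it. The groups did not overlap, but the difference between the arrays numbered 3 was only -0.17, where it was -2.40 and -2.36 for replicates 1 and 2. The Gja5 difference was -1.64 with a standard error of 0.54 and a 95% interval of -2.82 to -0.47. The limma adjusted p was 1.00 for both connexins. Without the arrays numbered 3 of all 4 groups, Gja5 fell by 2.38 (adjusted p 2e-04) and Gja4 by 1.50 (adjusted p 0.0125) on the log2 scale. Without both arrays numbered 3 in normoxia only, the limma adjusted p was 0.77 for Gja5 and 0.834 for Gja4. RNA was measured in bulk, so fewer cells of a type and less RNA per cell cannot be told apart.

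The summed endothelial marker signal was 71855, 71428 and 88914 on normoxia 1 to 3 and 65006, 66972 and 82951 on inhibitor 1 to 3. It was lower with the inhibitor within each replicate number. Over the 36 endothelial identity genes measured, the median difference was -0.09. In 1 of the 36 all inhibitor values lay below all normoxia values, where 2.64% of all genes tested did so. It was Rasip1, a regulator of vascular tube formation (10.38, 10.31 and 10.29 against 10.01, 9.91 and 10.22). Over all genes tested the median difference was -0.004. The part of cell composition in the Notch and arterial differences was not tested.

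Promoter sequences bear on these genes because Rbpj binds DNA carrying the letters TGGGAA. RefSeq sequences from 250 bases before to 50 bases after the start of transcription (GRCm38.p6) were searched for these letters on both strands. Hey1 has no entry in the table. The promoters of Gja4 (chr4:127313990-127314289, minus strand), Gja5 (chr3:97032152-97032451, plus strand) and the arterial gene Depp1 (chr6:116650434-116650733, plus strand) are shown because these genes had the lowest values relative to normoxia among genes with an entry. Capitals mark the letters or their reverse complement, and the bases are written in the direction of transcription.
Gja4: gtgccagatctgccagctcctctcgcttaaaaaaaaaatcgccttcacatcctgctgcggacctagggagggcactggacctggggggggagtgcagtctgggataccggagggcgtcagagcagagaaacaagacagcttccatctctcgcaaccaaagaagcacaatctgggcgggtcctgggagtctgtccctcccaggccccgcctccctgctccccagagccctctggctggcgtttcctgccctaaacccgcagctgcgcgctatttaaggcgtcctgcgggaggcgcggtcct
Gja5: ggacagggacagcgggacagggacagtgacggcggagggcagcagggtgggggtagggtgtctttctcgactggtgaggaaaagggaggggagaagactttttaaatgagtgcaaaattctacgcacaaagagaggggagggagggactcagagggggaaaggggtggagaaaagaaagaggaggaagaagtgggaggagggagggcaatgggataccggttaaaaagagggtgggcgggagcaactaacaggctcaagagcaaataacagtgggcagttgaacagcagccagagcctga
Depp1: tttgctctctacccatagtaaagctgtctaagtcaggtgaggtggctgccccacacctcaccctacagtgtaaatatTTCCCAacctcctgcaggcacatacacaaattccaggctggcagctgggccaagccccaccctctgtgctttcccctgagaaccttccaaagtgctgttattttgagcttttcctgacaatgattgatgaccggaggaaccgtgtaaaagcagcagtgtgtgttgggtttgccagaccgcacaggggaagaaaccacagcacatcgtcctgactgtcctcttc
The Gja4 and Gja5 windows do not hold the letters, and the Depp1 window holds them 1 time, on the minus strand, starting at base -173 relative to the start. They were found in 25.6% of all 32851 RefSeq promoters, in 23% of those of the genes tested, in 19% of those of the Notch target genes kept (4 of 21), in 21.7% of the promoters of genes whose groups were apart and lower and in 21.3% of those apart and higher. A match is a description and not a binding site.

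The list of Notch target genes was written with earlier results of these data known, so its counts are descriptions and not a test. It has 32 members, of which 31 had a named probe, 24 were kept and 22 were detected on all 6 arrays. In 4 of the 24 all inhibitor values lay below all normoxia values, where 2.64% of all genes tested did so. All 4 were detected on the 6 arrays, as were 22 members, against 2.55% apart and lower among all such genes. They were Hey1, Gja4, Gja5 and Hes6, a Hes family member, whose difference was only -0.14 (8.52, 8.58 and 8.49 against 8.43, 8.40 and 8.34). The other 2 kept probes of Hes6 overlapped between groups and differed by 0.09 and 0.05. In none of the 24 did all lie above at the gene's brightest kept probe, where 2.88% of all genes did. The difference was negative for 18 and positive for 6, with a median of -0.07. None passed the limma test, and 4 had an unadjusted p under 0.05, as 1.8% of all genes did. The other Hes and Hey repressors measured did not show a difference like that of Hey1. Hes1 differed by -0.05 (95% interval -0.60 to 0.50), Hey2 by -0.06 (-0.52 to 0.39) and Heyl by -0.14 (-0.57 to 0.29). Hey2 and Heyl were near the detection limit, at 4.72 to 5.48. Hes5, Hes7, Dtx1, Dll4, Nrip2, Lfng and Cxcr4 were too dim to be kept.

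**Figure D2:**
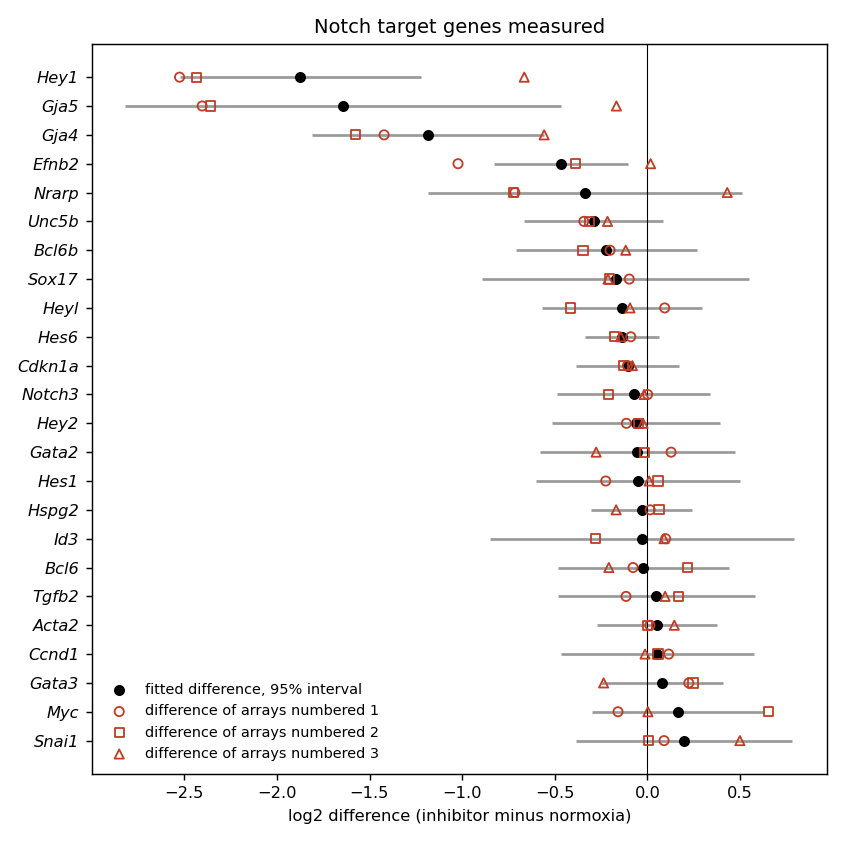
Difference in log2 signal with the inhibitor (x axis) for the 24 Notch target genes kept: black points and bars are the limma estimate and its 95% interval, and open symbols are the differences between arrays of the same number. Hey1, Gja5 and Gja4 lie apart on the left, with the differences of the arrays numbered 3 nearest to 0.

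Nrarp and Efnb2 were lower with the inhibitor in replicates 1 and 2 only. Nrarp, a Notch feedback inhibitor, had signals of 9.84, 9.75 and 8.91 without the inhibitor and 9.12, 9.02 and 9.34 with it. Its difference was -0.34 (95% interval -1.19 to 0.51), against -0.72 without both arrays numbered 3 in normoxia. Efnb2, which encodes the arterial ligand ephrin-B2, had 9.04, 8.81 and 8.66 without the inhibitor and 8.02, 8.42 and 8.68 with it. Its difference was -0.46 (95% interval -0.83 to -0.10), and the groups overlapped through inhibitor 3. Unc5b, a netrin receptor of tip cells, differed by -0.29, and the transcription factors Bcl6b and Sox17 by -0.22 and -0.17. Cdkn1a, Notch3, Gata2, Hspg2, Id3 and Bcl6 had differences of -0.11, -0.07, -0.05, -0.03, -0.03 and -0.02. Tgfb2, Acta2, Ccnd1, Gata3, Myc and Snai1 had differences of 0.05, 0.05, 0.05, 0.08, 0.17 and 0.20. The dimmer kept probes of Acta2 differed by 0.27, 0.36 and 0.29. The first of these had all inhibitor values above all normoxia values (14.08, 14.05 and 14.04 against 13.94, 13.89 and 13.52). The 95% intervals of these 15 genes, each at its brightest kept probe, all included 0.

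The receptors and the enzyme itself showed no separated groups. All 4 Notch receptors were kept, with differences of -0.09 for Notch1, -0.07 for Notch2, -0.07 for Notch3 and -0.32 for Notch4, the receptor most restricted to endothelium. Notch4 had signals of 12.21, 12.21 and 12.14 without the inhibitor and 11.72, 11.74 and 12.15 with it, so replicates 1 and 2 were lower and replicate 3 was not. A second, dimmer Notch4 probe differed by -0.13. Of 8 ligands on the list, Dll1, Dll3 and Dll4 were too dim to be kept. The ligands Jag1 and Jag2 differed by -0.01 and 0.02, and the non-canonical ligands Dlk1 and Dner by 0.50 and 0.07. The 95% interval of Dlk1 was -0.40 to 1.41. The 5 gamma-secretase subunits measured (Psen2, Ncstn, Aph1a, Aph1b and Psenen) differed by -0.17 to 0.07. None of the 11 processing and glycosylation genes and none of the 14 genes of the nuclear complex had separated groups. Of 8 modulators, 1 did: Numbl, a relative of the Notch inhibitor Numb, was lower (6.53, 6.75 and 6.50 against 6.40, 6.33 and 6.20). Of all genes tested, 2.64% were separated and lower.

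Other membrane proteins cut by gamma-secretase were covered by a list of 41 genes, of which 27 were kept. Their median difference was 0.002. Efnb1, an ephrin ligand, was higher on all 3 inhibitor arrays (9.42, 9.60 and 9.07) than on the normoxia arrays (8.92, 8.90 and 8.89), a difference of 0.46 with a standard error of 0.17. App, the amyloid precursor protein, was higher by 0.13, and the chemokine Cxcl16 had a difference of -0.46, both without overlap. Without both normoxia arrays numbered 3 the Cxcl16 difference was -0.21. None passed the limma test. Over all genes tested, 2.88% were separated and higher and 2.64% lower.

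Of 33 arterial markers 24 were kept; 19 had a negative difference, and the median was -0.15. Hey1, Gja4 and Gja5 alone had groups apart, all lower, where 2.64% of all genes tested were apart and lower. This list too was written with earlier results of these data known. Depp1 had signals of 9.12, 8.94 and 7.34 without the inhibitor and 6.92, 6.41 and 8.53 with it. It was lower in replicates 1 and 2 and higher in replicate 3, so the groups overlapped and the difference of -1.18 had a 95% interval of -2.36 to -0.001. Without both arrays numbered 3 in normoxia its difference was -2.37 (adjusted p 0.0344). Sox7, a SoxF transcription factor, had 10.42, 10.49 and 10.48 without the inhibitor and 9.92, 9.73 and 10.63 with it, a difference of -0.37. Of 18 venous and lymphatic markers 17 were kept, none with separated groups, and their median difference was 0.04. The hyaluronan receptor Lyve1 had the largest venous or lymphatic difference, -0.64 (95% interval -1.35 to 0.07).

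**Figure D3:**
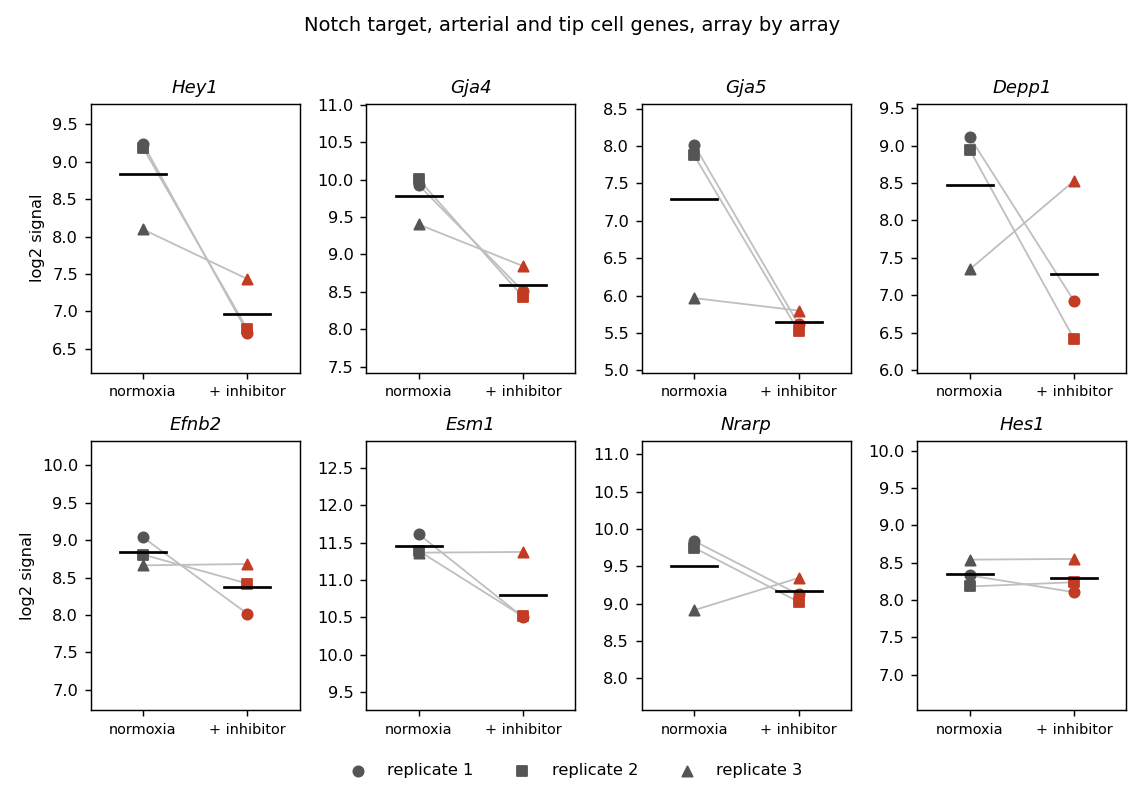
Log2 signal (y axis, a range of its own in each panel) of 8 Notch target, arterial and tip cell genes on each array without (grey) and with (red) the inhibitor; symbols give the replicate number, grey lines join arrays of the same number and black bars are group means. Hey1, Gja4 and Gja5 do not overlap between groups, and Depp1, Esm1 and Nrarp are lower with the inhibitor in replicates 1 and 2 only.

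Of 22 tip cell genes kept, 16 had a negative difference and the median was -0.10. The separated one was Trp53i11, a p53-induced gene, with 5.90, 6.28 and 5.94 without the inhibitor and 5.82, 5.43 and 5.73 with it. Of all genes tested, 2.64% were separated and lower. Esm1, a proteoglycan of sprouting tip cells, had 11.61, 11.39 and 11.36 without the inhibitor and 10.50, 10.51 and 11.37 with it. The inhibitor arrays numbered 1 and 2 were lower and inhibitor 3 lay at the level of normoxia 3. The difference was -0.66 with a standard error of 0.21, and it was -0.996 (adjusted p 0.0235) without the arrays numbered 3 of all 4 groups. Without both arrays numbered 3 in normoxia only, the limma adjusted p of Esm1 was 0.185. Kdr was near the detection limit at 5.27 to 6.21, with a difference of 0.42. Angpt2, a destabilizing ligand of the Tie2 receptor, differed by -0.54 (8.48, 8.43 and 9.88 against 8.10, 7.92 and 9.17). Of 17 stalk cell genes kept, Hey1 was the separated one, and the median difference was -0.05. In the VEGF system, 0 of 10 genes were separated, and Vegfc had 8.99, 9.06 and 7.61 without the inhibitor and 8.21, 8.08 and 8.02 with it. In the adrenomedullin system, 0 of 7 were separated, and Adm differed by 0.24 with a standard error of 0.33.

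The list with the median farthest from 0 was that of pluripotency markers, mainly through replicate 3. Of 26 markers kept, 22 had a negative difference and the median was -0.50. The median difference was -0.18 and -0.15 between the arrays numbered 1 and 2, and -0.93 between those numbered 3. Nanog had signals of 9.97, 10.09 and 9.20 without the inhibitor and 9.86, 9.87 and 7.38 with it. Dppa5a had 14.20, 14.18 and 12.98 against 13.99, 13.93 and 11.09. For both genes inhibitor 3 was by far the lowest array, and inhibitor 1 and 2 lay close to normoxia 1 and 2. Nr5a2, a nuclear receptor that sustains Pou5f1 expression, was the member with the smallest p. It was lower in all 3 replicates (8.25, 8.21 and 8.14 against 7.75, 7.80 and 7.47), a difference of -0.52 with a standard error of 0.16. Without both arrays numbered 3 in normoxia the median over the list was -0.15. The part of undifferentiated cells in these values was not tested.

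Lum, a matrix proteoglycan of fibroblasts, had 6.41, 6.70 and 5.71 without the inhibitor and 7.11, 7.21 and 7.31 with it. Dcn, the related proteoglycan decorin, had 8.08, 8.15 and 8.08 without it and 8.63, 8.79 and 8.88 with it. Neither overlapped, with differences of 0.94 (standard error 0.39) and 0.66 (standard error 0.30). Without both normoxia arrays numbered 3 the Lum difference was 0.61. They were the 2 separated genes among 18 mesenchymal and fibroblast genes kept, whose median was 0.08. Among 10 cardiac genes kept 3 were separated and higher, where 2.88% of all genes were, with a list median of 0.17. Of 4 cardiac markers with a probe, Myh6 and Myl7 were detected on no array, and Nkx2-5 and Actc1 on all 6. Tbx20, a T-box factor of the developing heart, had 6.37, 6.33 and 6.72 against 7.06, 7.23 and 7.12, and Hand1, a bHLH factor of the same tissue, 6.56, 6.78 and 6.34 against 7.22, 7.19 and 6.92. Their differences were 0.66 and 0.55. Gata6 was the third and differed by 0.23; it also stands on the endoderm list, where 1 of 9 genes was separated. None of the 16 mural and smooth muscle genes kept was separated at its brightest kept probe, and their median was 0.08. Nor was any of 20 haematopoietic or 10 erythroid genes.

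Of 28 HIF target genes kept, 3 were separated and higher and 2 lower, where 2.88% and 2.64% of all genes were, and none passed the limma test. Ppp1r3c, a glycogen-targeting subunit, differed by 0.43, Ndrg1 by 0.54 (0.34 without both normoxia arrays numbered 3) and Loxl2, a lysyl oxidase, by 0.42. Lox, the founding lysyl oxidase, differed by -0.43 and was lower. Ddit4, an inhibitor of mTORC1, differed by -0.29 (10.11, 10.21 and 9.94 against 9.75, 9.76 and 9.87). Slc2a1, the glucose transporter GLUT1, was higher on every inhibitor array (13.98, 13.96 and 14.11 against 13.71, 13.57 and 13.71), a difference of 0.35 with a standard error of 0.14. Of 21 glycolysis genes, 2 were separated and higher, Slc2a1 and Pgam1. Of 18 G2 and M phase genes, 15 had a positive difference, and the mitotic genes Ndc80 and Kif23 were separated and higher, by 0.15 and 0.11. The medians of 35 oxidative phosphorylation genes, 22 S phase genes, 18 G2 and M phase genes and 20 ribosomal protein genes were -0.03, 0.01, 0.09 and -0.01. Of 30 unfolded protein and ATF4 response genes, 22 had a positive difference, with a median of 0.07, and the chaperones Calr and Pdia6 were separated and higher by 0.18 and 0.20. In the interferon list Ifi27 was separated and lower, with a difference of -0.40, or -0.25 without both normoxia arrays numbered 3. Tgfbi, a matrix protein induced by TGF-beta, was the separated gene of the BMP and TGF-beta list, with 11.46, 11.40 and 11.09 against 11.80, 11.77 and 11.49.

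**Figure D4:**
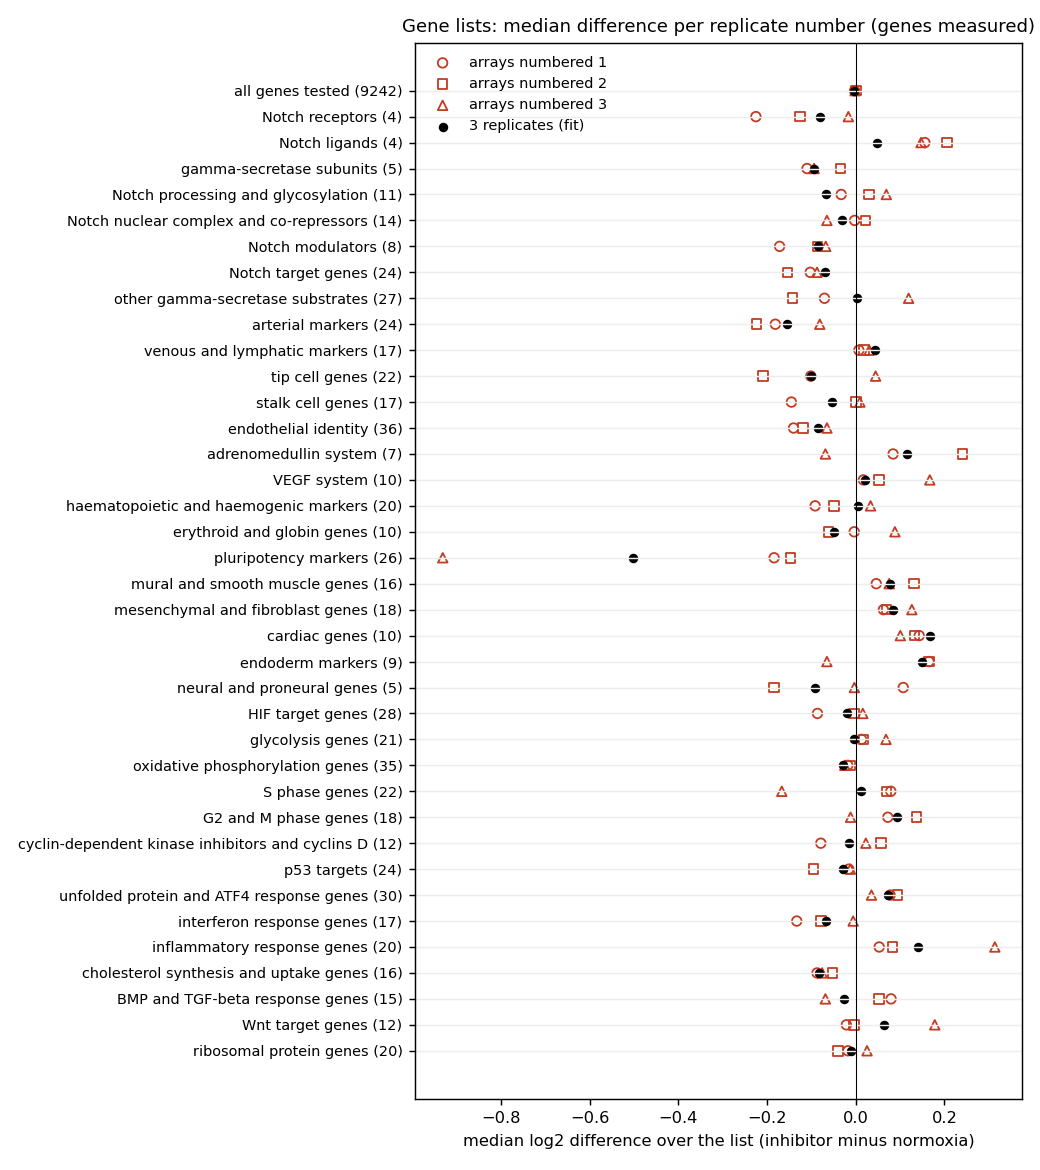
Median log2 difference with the inhibitor (x axis) over the kept genes of each of 37 lists and over all genes tested, with the number of genes in parentheses; black points come from the fit over all replicates and open symbols from the differences between arrays of the same number. Pluripotency markers lie farthest from 0, at -0.93 for the arrays numbered 3.

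Over all genes tested, 244 (2.64%) had all inhibitor values below all normoxia values and 266 (2.88%) above. The 12 of each with the smallest unadjusted p are named here, and none passed the limma test. The 12 higher ones were Ppm1n, Armc9, Catsperd, Col4a6, Fmn2, Slc45a2, Cndp2, Vgll2, Sema5a, Col23a1, Nnat and Cavin2. Their differences ran from 0.35 to 1.26. Vgll2 had signals of 7.99, 8.03 and 6.95 without the inhibitor and 9.02, 9.07 and 8.67 with it, and its other 2 kept probes were separated in the same direction. Of the 12, 2 encode collagen chains, Col4a6 of basement membrane and Col23a1, a transmembrane collagen, with differences of 0.51 and 0.35. Cavin2, a coat protein of caveolae, had 8.93, 9.02 and 8.88 against 9.64, 9.65 and 9.12, and Nnat, a small membrane protein encoded by an imprinted gene, 9.61, 9.61 and 9.47 against 10.08, 10.04 and 9.84. Sema5a, a semaphorin, differed by 0.50. Of the 12, 5 were not detected on all 6 arrays: Ppm1n, Catsperd, Col4a6, Fmn2 and Slc45a2. Each was detected on all 3 inhibitor arrays but on only 0 or 1 normoxia array. They met the detection filter through the group where they are higher, so their p-values are not independent of the filter. Ppm1n, a protein phosphatase with the smallest p of the higher genes, was not detected on any normoxia array and was at least 1.30-fold higher with the inhibitor. Fmn2, a formin, was also at least 1.30-fold higher. The other 3 kept probes of Armc9 overlapped between groups.

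The 12 lower ones were Hey1, Ndufb11, Gzmd, Ccdc28a, Gja4, Nr2f1, Tmem266, Man2b2, Hr, Hdc, Rbm12b2 and Wdr92. Their differences ran from -0.43 to -1.87. Ndufb11, a subunit of respiratory complex I, had 6.25, 6.37 and 6.16 without the inhibitor and 5.34, 5.67 and 5.22 with it. Gzmd, a granzyme, had 6.84, 6.91 and 7.15 against 6.001, 6.06 and 6.37, but its second kept probe differed by 0.13. Hr, a nuclear receptor co-repressor, differed by -0.67 and Man2b2, a lysosomal mannosidase, by -0.50. Nr2f1, an orphan nuclear receptor, was not detected on any inhibitor array and was at least 1.30-fold lower with the inhibitor. Ccdc28a, Tmem266 and Hdc (histidine decarboxylase) were likewise not detected with it, and were at least 1.24-fold, 1.24-fold and 1.16-fold lower. Nr2f1, Ccdc28a, Tmem266 and Hdc met the detection filter only through the normoxia arrays, so their p-values are not independent of the filter. With Ndufb11, 5 of the 12 were not detected on all 6 arrays.

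The arrays at low oxygen share no sample with these 6, although they share the normalization and the variance estimate. There, without the inhibitor, Hey1 had 9.18, 9.15 and 9.13, and with it 6.84, 6.59 and 7.27, a difference of -2.25. Gja4 had 9.22, 9.16 and 9.70 against 7.54, 7.91 and 8.77, a difference of -1.29. Gja5 had 10.30, 10.37 and 9.47 against 6.52, 6.59 and 8.14, a difference of -2.96. Vgll2 had 7.07, 7.25 and 6.25 against 7.82, 7.60 and 8.88, a difference of 1.24. For these 4 genes the groups were apart in the same direction at both oxygen levels. The interaction of inhibitor and oxygen was called for 0 of 13602 probes (0%) by limma, with 206 at an unadjusted p under 0.05. The Gja5 difference in hypoxia minus that in normoxia was -1.32 with a standard error of 0.76, and its adjusted p was 1.00. A difference of the inhibitor effect between oxygen levels was therefore not detectable, and the intervals do not show that the effects are equal.

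Of the 244 genes that were apart and lower in normoxia, 21 (8.61%) were also apart and lower in hypoxia, where 4.89% of all genes were, and they make 4.65% of the 452 in hypoxia. Of the 266 higher ones, 33 (12.4%) were also higher in hypoxia, where 3.94% of all genes were, and they make 9.07% of 364. Another 16 genes were apart in opposite directions, 8 each way, among them Ccdc28a (-0.73 in normoxia and 0.37 in hypoxia) and Slc45a2 (0.41 and -0.36). Ccdc28a was near or below the detection limit: in hypoxia it was detected on 0 arrays without the inhibitor and 1 with it. The genes that follow were chosen after their values were seen. Svep1, an extracellular matrix protein, differed by 0.73 in normoxia and 0.74 in hypoxia, and Dcn by 0.66 and 0.94. Armcx6 differed by -0.65 and -1.17, Acer2, an alkaline ceramidase, by -0.55 and -0.66, and the germ cell factor Dppa3 by -0.81 and -1.08. Dppa3 turned on replicate 3: its differences between arrays of the same number in normoxia were -0.21, -0.41 and -1.82, and it was -0.31 without both normoxia arrays numbered 3. Slc2a1, Tgfbi, Efnb1 and App were higher and Ddit4 was lower in both. Of the 12 named higher genes, 11 had a positive difference in hypoxia too, and Vgll2 alone was apart in the same direction there. Of these, Ppm1n, Col4a6 and Fmn2 were detected on 0 hypoxia arrays, with or without the inhibitor. Their signs there (0.003, 0.03 and 0.15) are of signals below detection. Catsperd was detected in hypoxia on 0 arrays without the inhibitor and 2 with it. Slc45a2 was apart in the opposite direction. Of the 12 named lower genes 6 had a negative difference in hypoxia, against 57.9% of all genes with the same sign at both oxygen levels. Hey1 and Gja4 were the 2 of those that were also apart and lower. Nr2f1, another of the 6, was detected on no hypoxia array. Hdc was detected there on 2 arrays without the inhibitor and 0 with it, and Tmem266 on 1 of each.

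**Figure D5:**
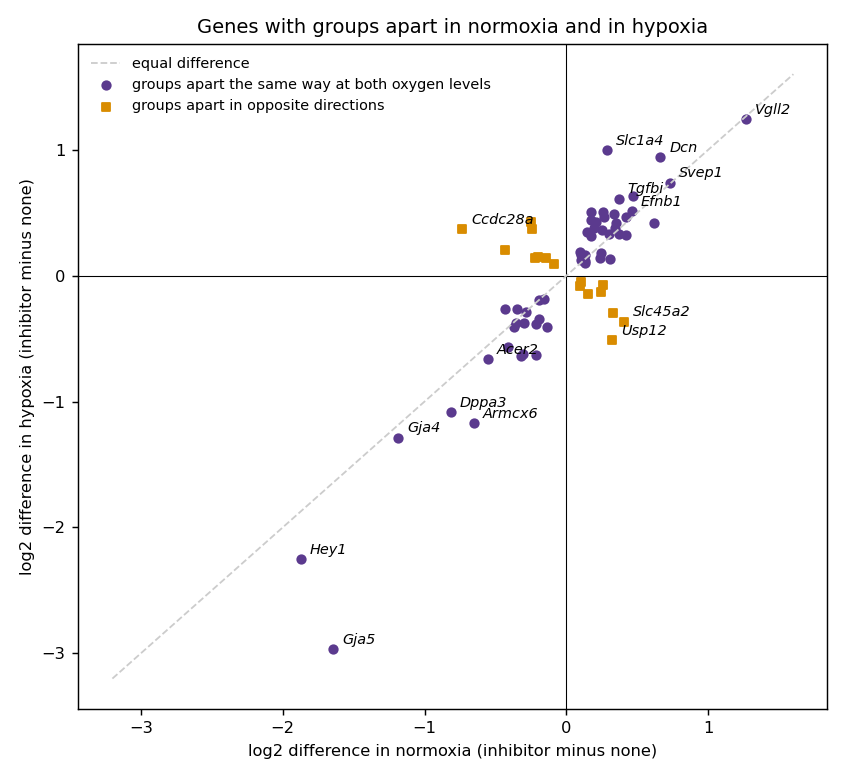
Log2 difference with the inhibitor in normoxia (x axis) and in hypoxia (y axis) for the 54 genes whose groups were apart the same way at both oxygen levels (purple) and the 16 apart in opposite directions (orange); the dashed line marks equal difference. Hey1, Gja5 and Gja4 lie at the lower left and Vgll2 at the upper right.

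Weighting the arrays by their agreement with the others of their group gave the replicate 3 arrays weights of 0.209 to 0.514, and 16 of 13602 probes (0.118%) then passed, 13 lower and 3 higher. The named genes among them were Hey1, Gja4, Gja5, Esm1, Depp1, Gzmd, Ccdc28a, Wdr92, Rgs3, Efna1, Mybl2, Ppm1n and Ttc8. Ppm1n was detected on 0 normoxia arrays and Ccdc28a on 0 inhibitor arrays. Both met the detection filter only through the group where they are higher, so their test is not independent of the filter. The second kept probe of Gzmd differed by 0.13 in the main fit. Rgs3, an inhibitor of G protein signalling, passed with 2 probes. Neither is its brightest kept probe, which did not pass. The brighter of the 2 had 7.34, 7.40 and 7.06 without the inhibitor and 5.56, 5.53 and 6.95 with it. The dimmer was detected on 2 normoxia arrays and 1 inhibitor array, and its groups overlapped. Mybl2 and Ttc8 likewise passed only through a probe that was not their brightest. Efna1, an ephrin ligand, had 8.33, 8.34 and 7.89 against 7.35, 7.46 and 8.14, lower in replicates 1 and 2 and higher in replicate 3. Ttc8, a subunit of the BBSome of cilia, had 5.57, 5.54 and 5.57 against 6.51, 6.36 and 6.22, with no overlap. Without replicate 3 of all 4 groups 20 probes (0.147%) passed, 15 lower and 5 higher, and 9 of these were among the 16. They included Vegfc (-0.88), Dpysl2 (-0.91), Trh (-1.17), Gria2 (-0.83), 3 probes of Ly6h (-0.86 to -1.01), 2 probes of Vgll2 (1.03 and 0.94), Spon2 (0.76) and Rarb (1.20). The Dpysl2 probe was not the brightest kept for its gene. Rarb, a retinoic acid receptor, had 6.33, 6.16 and 5.72 without the inhibitor and 7.47, 7.43 and 5.28 with it, so replicate 3 lay in the opposite direction. Where only the 2 normoxia arrays numbered 3 were left out, 4 probes (0.0294%) passed: Hey1, Rgs3 and Depp1 were lower and Rarb was higher.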

How the data were processed

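CD31-positive cells of 12 samples were profiled, each on its own Illumina mouse bead array, and grouped by the sample titles. The deposited non-normalized table holds, per the file headers, a linear intensity for each probe, and beside it a p-value for detection. Per the submitters' processing notes BeadStudio was used (version not given in the sources used here). Values below 0 (22.4 to 24.1% of an array's) show that background had been subtracted by the authors. The authors' processed intensity table, floored at 20, served only as an alternative. Arrays have no read depth, and precision is set by how far a probe lies above background and by how few arrays there are.

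Background was corrected in limma 3.58.1 (R 4.3.3) with its normexp method, which infers the noise from the detection p-values, and an offset of 16. Arrays were quantile normalized over all 12 and signals taken as log2. Symbols came from the platform annotation: 23978 probes have 1 symbol, 0 have several and 1719 have none. Probes were filtered as the report states. The limma model for each probe had 4 group means, from 12 arrays (8 residual degrees of freedom, so the 4 groups share a variance), with two-sided moderated tests and Benjamini-Hochberg adjustment over the 13602 kept probes at 0.05. Intervals cover 95%. Groups are called apart, or separated, when all 3 values of one lie on one side of all 3 of the other. A probe that a group detects on no array has a bound, "at least", against the lowest detected signal. The code was tested on simulated data.

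Genes named are the 12 each way that were called or, as none was, apart with the smallest unadjusted p. To these come the Notch genes, up to 6 arterial, venous, tip and stalk markers with the greatest difference or smallest p, and up to 4 members of other lists by p. Other genes named were chosen after their values were seen. The members and the 37 lists (875 entries) were chosen with earlier results of these data known. Alternatives changed background, normalization, filter, arrays in the fit, replicate block and array weights.

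Same-numbered arrays of the 2 groups deviated together from their group means (correlations 0.41, 0.406 and 0.659). Arrays numbered 1 and 2 correlated across numbers as well (0.386 and 0.406), so the correlations do not show pairing within these numbers. The main fit has no replicate term. The number served as a block in alternatives and to match arrays for the differences given by replicate. What the samples of a number have in common is not in the labels. Plots were made in matplotlib 3.10.9 under Python 3.11.15.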

Additional observations from a re-analysis of the deposited data

How the results depend on the processing

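The fit called 0 probes higher and 0 lower under each change of background, offset, scaling or filter, under the authors' processed table and on the 6 normoxia arrays alone. With the replicate block the counts were also 0 and 0 (471 probes at an unadjusted p under 0.05, smallest adjusted p 0.443), so the block changed no call. Leaving out 1 array at a time gave 0 higher and 0 to 1 lower: without normoxia replicate 3 the probe was Hey1, and without inhibitor replicate 3 it was 1 probe of Rgs3 (-1.72, adjusted p 0.0106). Leaving out replicate 3 of both normoxia groups gave 1 higher and 3 lower. Leaving out replicate 3 of all 4 groups, an alternative chosen after seeing the data, gave 5 higher and 15 lower, and array weights gave 3 higher and 13 lower. The interaction was called for 0 probes in each setting it was run for, which leaves out the fits on the 6 normoxia arrays alone and the one without replicate 3 of both normoxia groups. The difference of Hey1 ran from -2.48 to -1.63 over 26 alternatives (adjusted p 2e-04 to 1), of Gja4 from -1.50 to -1.07 (0.00792 to 1), of Gja5 from -2.38 to -1.23 (2e-04 to 1), of Depp1 from -2.37 to -0.74 (0.00417 to 1), of Esm1 from -0.996 to -0.51 (0.0235 to 1) and of Vgll2 from 0.91 to 1.45 (0.0265 to 1). Of 1290 values for 50 genes, 0 changed sign and 18 moved past the threshold. Other filters, the replicate block, fitting the 6 normoxia arrays alone and leaving out a low-oxygen array leave each difference unchanged by design. Part of the sign count was therefore fixed in advance. Dim genes near the detection limit are the least certain, and 3 arrays a group limit the test.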

Other observations

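Inflammatory genes were mostly above their normoxia level, with 15 of 20 kept genes positive and a median difference of 0.14. The median was 0.31 between the arrays numbered 3 and 0.05 and 0.08 between those numbered 1 and 2. Ptgs2, the inducible cyclooxygenase, was the separated member, at 0.28. Cxcl10, a chemokine, had signals of 7.36, 7.27 and 5.89 without the inhibitor and 7.70, 7.81 and 6.73 with it, so the groups overlapped. Of 16 cholesterol synthesis and uptake genes, 12 were negative with a median of -0.08. Dhcr7, which makes cholesterol in its last step, was the separated one, at -0.24. Of 24 p53 target genes, 1 was separated and lower (Trp53i11) and 1 higher (Apaf1, at 0.08). The medians of 12 Wnt target genes, 12 cell cycle inhibitor and cyclin D genes and 5 neural genes were 0.06, -0.02 and -0.09, with 0 separated. None of these genes passed the limma test, and the same background of 2.64% lower and 2.88% higher applies.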
